A study of Saccharomyces cerevisiae with 27 samples.

Results

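The comparison of short-term argon with aerated growth covers the genes of Saccharomyces cerevisiae strain BY4742, an S288C-derived laboratory strain, after 90 min under argon (ArgonST, 3 libraries) and in aerobic growth (BY, 3 libraries). Its members are all 6709 gene rows of the authors' deposited table, which is every gene row that the table holds, and 6 of the 27 libraries of the series. Both groups were the background strain, with no plasmid or added allele named in the labels, and were grown in CSM, a synthetic complete medium. RNA was extracted with hot phenol, mRNA was isolated on poly-T beads and paired-end libraries were sequenced. The labels do not say whether the aerated cells were sampled at the same density or time after dilution as the argon cells. Values of another group of the same strain, labelled as grown in a microfermenter (ArgonLT, 3 libraries) and headed long-term hypoxia in the table, are set beside those of short-term argon where they help.

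Yeast senses oxygen largely through molecules whose synthesis needs it. Haem is needed by the activator Hap1, which drives respiratory genes and the repressor Rox1, so that loss of oxygen relieves repression of hypoxic genes. This describes yeast in general, and whether Hap1 is fully working in BY4742 was not tested here. Ergosterol and unsaturated fatty acids also need oxygen for their synthesis, and their shortage is read by the sterol regulators Upc2 and Ecm22 and by the membrane-bound activators Mga2 and Spt23. Respiration by the mitochondrial chain ends in oxygen, and the Hap2/3/4/5 complex, which binds CCAAT boxes, drives genes for its subunits.

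Every log2 value, q and call below comes from the authors' deposited table, which gives 1 log2 value and 1 q per gene and comparison and no value per library. A log2 value is the short-term argon group over the aerated group, so positive values are higher under argon, and q is the authors' p-value adjusted for the false discovery rate. The words rose and fell are kept for genes whose q was under 0.05. Replicate spread therefore enters only through the authors' q, no SD can be given, and the depth is unknown. The table's q was under 1 for 5474 genes, which are called tested. The marker genes could not check the strain: URA3, LYS2 and LEU2, which BY4742 lacks, had a log2 of 0 and a q of 1, which is no value and is shared by 589 genes. HIS3, partly deleted in the strain, was listed at 0.17 with a q of 0.899. Of mating type genes, 4 of 6 alpha-specific and 0 of 7 a-specific ones were tested here. In the microfermenter comparison 4 of each were tested, so these counts alone do not settle the strain.

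After 90 min of argon, 398 of the 5474 tested genes (7.27%) passed the threshold in the authors' deposited table. Of these, 266 (4.86%) rose and 132 (2.41%) fell. The changes were mostly small: among called genes with a finite ratio, the median rise was 0.81 on the log2 scale (1.76-fold) and the median fall was -0.76 (1.69-fold). The table held 70 called rises of at least 1 on the log2 scale, 8 of at least 2 and 2 of at least 3, against 34, 2 and 1 falls. The smallest called change was 0.52, and the median over all tested genes was 0.05. In the microfermenter, set against the same aerated libraries, the same table called 2424 of 5702 tested genes (42.5%), with 1372 higher (24.1%) and 1052 lower (18.4%).

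**Figure D1:**
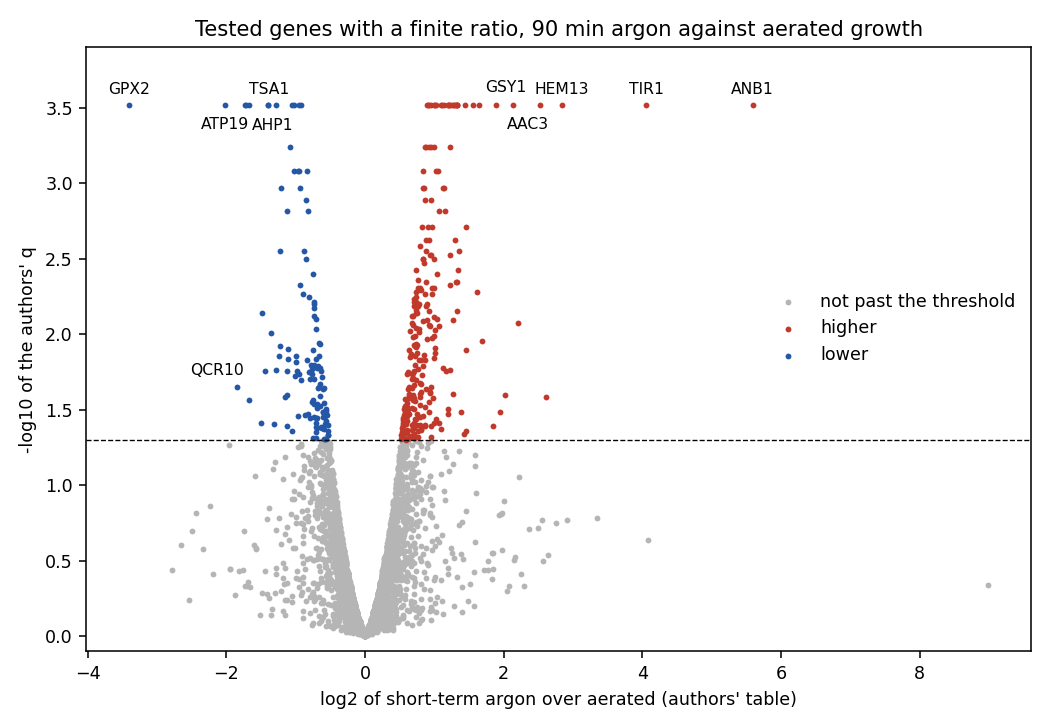
Each point is a tested gene with a finite ratio in the authors' deposited table, by its log2 of 90 min argon over aerated growth (x axis) and the -log10 of its q (y axis), and the dashed line marks a q of 0.05. ANB1 at 5.59 and GPX2 at -3.40 lie farthest out among called genes, and 43 called genes share the lowest q of 0.000304, which forms the top row of points.

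The 15 largest rises with a finite ratio in the authors' deposited table were led by genes known to be repressed when oxygen is present. ANB1 (YJR047C, chrX:524908-525381), the hypoxic form of translation factor eIF5A, rose by 5.59 (48.3-fold). TIR1 (YER011W, chrV:175248-176012), a cell wall mannoprotein made in anaerobic and cold cells, rose by 4.06 in that table (16.7-fold). HEM13 (YDR044W, chrIV:546642-547628), coproporphyrinogen oxidase, which uses oxygen in haem synthesis, rose by 2.84 (7.15-fold). AAC3 (YBR085W, chrII:415983-416906), the hypoxic ADP/ATP carrier of the mitochondrial inner membrane, rose by 2.52 (5.72-fold). All 4 had the lowest q of the table.

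The remaining 11 of these rises were of mixed roles in the authors' deposited table. Storage carbohydrate genes were among them, GSY1, a glycogen synthase, at 2.14 and PGM2, the main phosphoglucomutase, at 1.89. Regulators and meiotic genes followed: TOS8, a homeodomain protein, at 2.02, MAL33, an activator of maltose genes, at 1.85 and IME2, a meiotic protein kinase, at 1.68. MCT1, a malonyl transferase of mitochondrial fatty acid synthesis, was listed at 1.64, AIM17, a mitochondrial protein, at 1.56 and SMD3, a core protein of spliceosomal particles, at 1.94. Reading frames that are dubious or uncharacterised made up the rest: YDR274C was 6.12-fold, YDL186W 4.59-fold and YFR020W 3.05-fold higher. YDL186W shares its locus in the table with YDL187C.

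The 15 largest falls in the authors' deposited table were led by peroxidases and small respiratory proteins. GPX2 (YBR244W, chrII:707528-708016), a glutathione peroxidase, fell by 3.40 on the log2 scale (10.6-fold), and TSA1 and AHP1, thiol peroxidases of the cytosol, fell by 1.72 and 1.67. ATP19, a small ATP synthase subunit, fell by 2.02, INH1, the protein that inhibits ATP synthase when the membrane potential collapses, fell by 1.73 and QCR10, a small subunit of complex III, fell by 1.85. The same table listed falls in RNA and mitochondrial genes: LIN1, a protein bound to a spliceosomal particle, at -1.68, LSM3, an RNA-binding Lsm protein, at -1.31, RPM2, a protein of mitochondrial RNase P, at -1.40 and QRI5, a mitochondrial protein, at -1.28. PEX15, a peroxisome assembly protein, was at -1.48, PMA2, the minor plasma membrane proton pump, at -1.40 and APC11, a subunit of the anaphase-promoting complex, at -1.36. YPL191C and YLR036C were at -1.50 and -1.45.

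The promoters of 4 oxygen-regulated genes that rose are shown because each holds the core letters of the Rox1 site. The sequences are from the RefSeq genome of build R64, 250 bases before the start codon and 50 from it on, read 5′ to 3′ on the gene's strand, with ATTGTT or its reverse complement AACAAT in capitals.
ANB1, chrX:525332-525631, minus strand: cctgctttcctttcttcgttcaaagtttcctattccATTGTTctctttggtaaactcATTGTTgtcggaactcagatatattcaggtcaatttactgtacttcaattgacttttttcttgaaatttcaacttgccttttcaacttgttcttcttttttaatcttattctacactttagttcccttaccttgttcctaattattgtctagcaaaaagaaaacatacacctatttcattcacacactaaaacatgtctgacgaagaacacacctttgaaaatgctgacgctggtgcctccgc
HEM13, chrIV:546392-546691, plus strand: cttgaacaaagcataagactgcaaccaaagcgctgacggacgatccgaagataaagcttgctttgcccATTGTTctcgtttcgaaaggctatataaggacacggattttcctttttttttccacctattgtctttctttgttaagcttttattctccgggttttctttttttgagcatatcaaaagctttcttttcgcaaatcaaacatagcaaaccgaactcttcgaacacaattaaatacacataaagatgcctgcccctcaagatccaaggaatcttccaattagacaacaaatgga
AAC3, chrII:415733-416032, plus strand: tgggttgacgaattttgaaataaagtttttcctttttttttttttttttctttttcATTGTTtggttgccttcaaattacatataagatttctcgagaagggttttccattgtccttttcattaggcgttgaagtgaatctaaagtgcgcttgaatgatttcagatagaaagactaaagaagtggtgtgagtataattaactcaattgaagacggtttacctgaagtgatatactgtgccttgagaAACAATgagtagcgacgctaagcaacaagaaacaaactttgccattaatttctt
OLE1, chrVII:398378-398677, plus strand: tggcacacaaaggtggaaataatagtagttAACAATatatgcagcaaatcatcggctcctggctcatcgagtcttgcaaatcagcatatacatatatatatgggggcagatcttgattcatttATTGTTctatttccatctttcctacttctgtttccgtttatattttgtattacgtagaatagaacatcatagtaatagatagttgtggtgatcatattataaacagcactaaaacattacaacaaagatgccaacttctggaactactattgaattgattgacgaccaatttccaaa
ANB1 held matches that start at 214 and 193 bases before the start codon, and HEM13 held 1 at 182. AAC3 held 1 at 194 bases before the start codon and another, on the other strand, that overlaps the start codon itself. OLE1 held 2, 1 of them on the other strand.

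The letters ATTGTT are common, so a match alone says little. On either strand they were found in 34.8% of the 5191 promoter windows of tested genes, in 40.3% of 263 windows of genes that rose and in 36.6% of 131 windows of genes that fell. Among 11 tested genes listed as Rox1 targets, 9 windows (81.8%) held them. Those targets were listed because Rox1 is known to act on them, so that share describes the list and is no result of the argon comparison. FET4 and ERG11 rose without the letters, while HMG2, MOT3 and ROX1 held them and did not pass. TIR1, which rose by 4.06, held none. In 40 windows of respiratory complex and ATP synthase genes, most of them with a log2 below 0, the share was 45%. The Upc2 letters TCGTATA were in 4.18% of windows of risers and 4.24% of tested windows, and TCGTTNAG in 3.8% and 2.62%. The Hap1 site letters CGGNNNTA were in 26.6% of windows of risers and 20.8% of tested windows. The low oxygen element ACTCAACAA was in none of the windows of called genes and in 0.173% of tested windows. No match in a window says only that the letters are not there.

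The Rox1 targets as a list were higher in the authors' deposited table: 8 of 11 tested members (72.7%) rose and 0 fell, beside 4.86% of all tested genes rising. Their median was 0.80, beside 0.05 over all tested genes. Beyond ANB1, HEM13 and AAC3, FET4, a low-affinity iron transporter, was at 1.23 and ERG11, the sterol demethylase, at 0.89. SUT1, a regulator of sterol uptake, was at 0.80, COX5B, the hypoxic subunit of cytochrome oxidase, at 0.74 and OLE1, the fatty acid desaturase, at 0.72. Members that did not pass were HMG2 at 0.36 with a q of 0.2, MOT3 at 0.20 with a q of 0.568 and ROX1 itself at -0.07 with a q of 0.879. CYC7 was listed at -0.88 with a q of 1, which is not a tested value.

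Paired isoforms give a view of exchange within a function, in the authors' deposited table. For the ADP/ATP carrier, hypoxic AAC3 rose by 2.52 while the main aerobic form PET9 fell by 0.94. For cytochrome oxidase subunit V, COX5B rose by 0.74 and COX5A fell by 0.71. Both pairs thus moved in opposite directions. For eIF5A, ANB1 rose by 5.59 and its aerobic partner HYP2 was at -0.05 with a q of 0.902. ANB1 and HYP2 are 91.1% identical over 473 of the 474 bases of ANB1, so reads may have been shared between them, and how shared reads were counted was not stated in the labels. FRD1, a soluble fumarate reductase, rose by 1.19 and its partner OSM1 was at -0.04 with a q of 0.915. HMG1, a reductase of the mevalonate pathway, was at 0.02 with a q of 0.957. AAC1 was at -0.93 with a q of 0.055 and CYC1, the main cytochrome c, at -0.91 with a q of 0.149.

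Among regulators of oxygen, haem, sterol and fatty acid genes, 6 of 15 tested members rose and 0 fell in the authors' deposited table, with a median of 0.35. The share rising over all tested genes was 4.86%. ECM22 rose by 0.92, SUT1 by 0.80, IXR1, a regulator of hypoxic genes, by 0.74 and UPC2 by 0.70. HAP1 rose by 0.61 and SPT23 by 0.57. MGA2, the partner of SPT23, was at 0.48 with a q of 0.0769. ROX1 at -0.07, MOT3 at 0.20, TUP1 at 0.17 with a q of 0.609 and CYC8 at -0.01 with a q of 0.975 make up the rest of the repressors. The 4 genes of the Hap2/3/4/5 complex did not pass: HAP2 was at 0.35 with a q of 0.439, HAP3 at -0.05 with a q of 0.929, HAP4 at 0.16 with a q of 0.595 and HAP5 at -0.33 with a q of 0.691. These are transcript levels and say nothing of the activity of the proteins.

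Haem synthesis beyond HEM13 held 1 more call in the authors' deposited table, where 2 of 15 tested members of the haem list rose and 0 fell. That is 13.3% rising, beside 4.86% of all tested genes. HEM15, ferrochelatase, which inserts iron at the last step of haem synthesis, rose by 0.73. The earlier enzymes HEM1 at 0.17 (q 0.599), HEM2 at 0.12 (q 0.693), HEM3 at 0.00 (q 0.992), HEM4 at -0.11 (q 0.793) and HEM12 at -0.04 (q 0.916) did not pass. HEM14, which also uses oxygen, was at 0.51 with a q of 0.379. Of the haem A enzymes, COX10 was at 0.54 (q 0.0992) and COX15 at 0.13 (q 0.683) in the same table. CYC3, which attaches haem to cytochrome c, was at -0.09 (q 0.858) and the haem oxygenase HMX1 at 1.13 with a q of 1, not tested. The haem enzymes CTT1 at 0.59 (q 0.16), CTA1 at -0.32 (q 0.447), CCP1 at -0.12 (q 0.719) and YHB1 at -0.01 (q 0.984) did not pass either.

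Most enzymes of the ergosterol steps that use oxygen rose in the authors' deposited table. Of 7 tested members, 5 rose (71.4%), 0 fell and the median was 0.69, while 4.86% of all tested genes rose. ERG25, a sterol methyl oxidase, rose by 0.95, ERG11 by 0.89 and NCP1, the reductase that feeds electrons to ERG11, by 0.78. ERG3, a desaturase, rose by 0.69 and ERG1, squalene epoxidase, by 0.64. CYB5, another electron donor, was at 0.69 with a q of 0.0807 and ERG5, a desaturase, at 0.47 with a q of 0.0874. None of these 7 changes reached 2-fold. The mevalonate steps before them had 1 riser of 10 tested, ERG8 at 0.53, and a median of 0.15, and the other late steps had 2 of 9, ERG28 at 0.97 and ERG6 at 0.52, with a median of 0.29. In the microfermenter the same table called 7 of 7, 10 of 10 and 8 of 9 of these lists higher. It called 24.1% of all tested genes higher there. The difference between the 3 lists was not tested.

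Around the sterol pathway the calls were few in the authors' deposited table, where 4.86% of all tested genes rose and 2.41% fell. ARE1, a sterol acyltransferase, rose by 0.75 and ATF2, which acetylates sterols, by 0.63, while OSH2, an oxysterol-binding protein, fell by 0.65, out of 17 tested genes of sterol uptake and esterification. In fatty acid synthesis 3 of 16 tested genes rose: FAA4 at 1.05 and FAA1 at 0.63, which activate fatty acids to acyl-CoA, and OLE1 at 0.72. OLE1 was listed at 3.20 in the microfermenter. INO2, the activator of phospholipid synthesis, rose by 1.04, alone among 20 tested phospholipid and inositol genes. IZH4 and IZH1, membrane proteins linked to zinc and sterols, rose by 0.93 and 0.79.

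The TIR mannoproteins of the anaerobic cell wall rose in both hypoxia comparisons of the authors' deposited table. All 4 TIR genes rose in 90 min of argon: TIR1 by 4.06, TIR2 by 1.35, TIR3 by 1.16 and TIR4 by 0.99. In the microfermenter they were listed at 6.85, 6.54, 5.57 and 7.37. DAN1 was at 3.35 with a q of 0.164 and DAN2 at 1.97 with a q of 0.268 under short-term argon, so neither passed. DAN3 was listed at 10, which stands for a ratio with a group at 0, and DAN4 at 0.33, both with a q of 1. The aerobic mannoproteins CWP1 and CWP2, at 0.37 with a q of 0.199 and -0.19 with a q of 0.663, did not pass, and were at -3.55 and -2.29 in the microfermenter. Of 24 seripauperins, a large subtelomeric family, 1 was tested and 0 passed at 90 min. The tested one, PAU23, is the gene given above as DAN2. In the microfermenter 14 were tested and 11 rose, beside 24.1% of all tested genes, so the 2 counts rest on different numbers of tested genes. Both comparisons share the aerated libraries, and the difference between them was not tested.

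**Figure D2:**
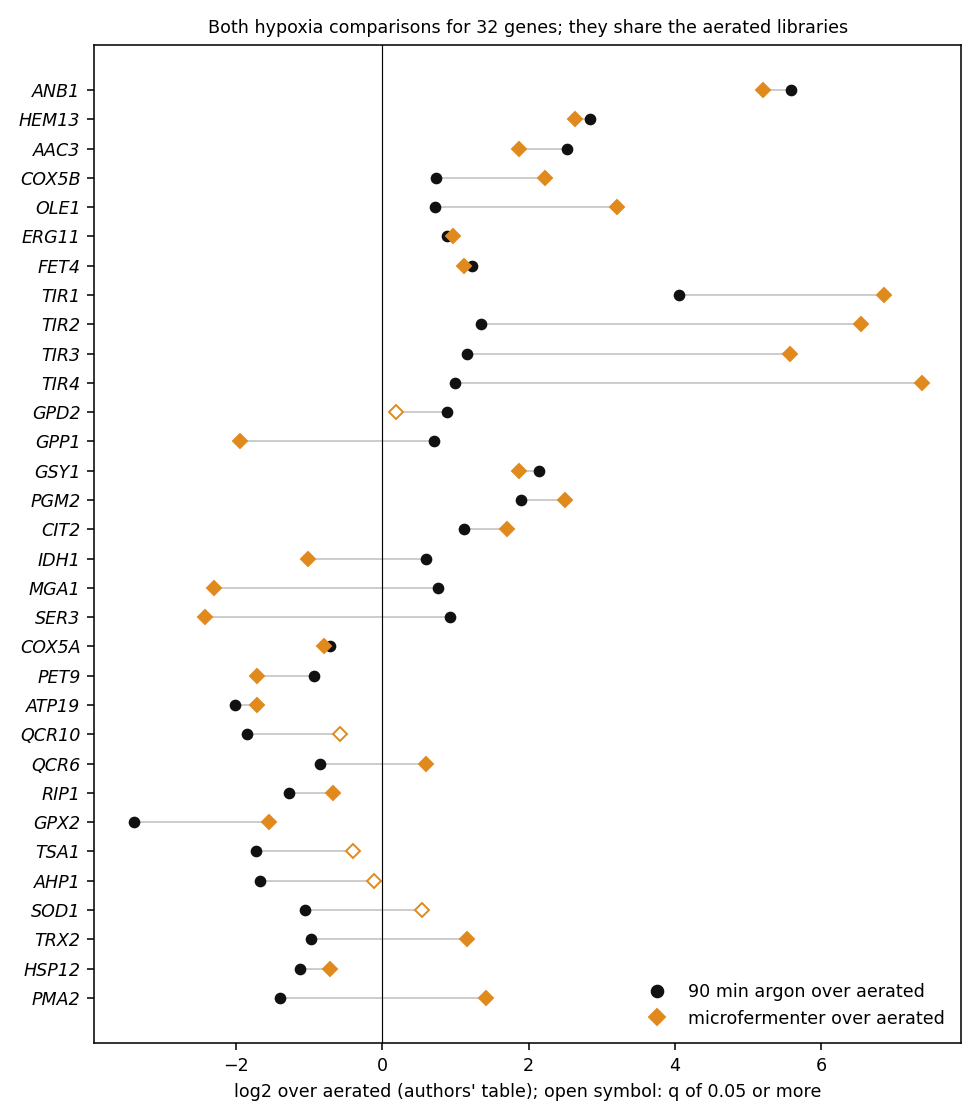
Log2 over the aerated group in the authors' deposited table for 32 genes (x axis), after 90 min of argon (circles) and in the microfermenter (diamonds), with open symbols for a q of 0.05 or more. The genes were picked after their values were seen, and both comparisons share the aerated libraries. The TIR genes lie between 0.99 and 4.06 at 90 min and between 5.57 and 7.37 in the microfermenter, while ANB1, HEM13 and AAC3 have their larger value at 90 min.

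Nuclear genes for the respiratory chain and ATP synthase held more falls than any other listed group in the authors' deposited table. Of 40 tested subunits and regulators of complexes II to IV and ATP synthase, 19 fell, 2 rose and 35 had a log2 value below 0, with a median of -0.68. For comparison, 2.41% of all tested genes fell. In complex II, succinate dehydrogenase, 1 of 4 fell, SDH2 at -0.71. In complex III, which passes electrons to cytochrome c, 5 of 9 fell: QCR10 at -1.85, RIP1, the iron-sulfur protein, at -1.28, QCR6 at -0.85, QCR2 at -0.84 and COR1 at -0.67. In complex IV, cytochrome oxidase, COX4 at -0.73 and COX5A at -0.71 fell and COX5B rose, out of 10. COX26 (YDR119W-A), a small subunit, was at 2.16 with a q of 0.299.

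ATP synthase had the most calls of these complexes, with 11 of 17 tested members lower (64.7%), 1 higher and a median of -0.69 in the authors' deposited table. Catalytic and stalk subunits fell by similar amounts: ATP1 by 0.76, ATP2 by 0.89, ATP3 by 0.93 and ATP16 by 0.55 in the catalytic head and its central stalk, and ATP5 by 0.75, ATP7 by 0.83 and ATP4 by 0.56 in the outer stalk. Small membrane subunits fell as well, ATP19 by 2.02, ATP17 by 0.88 and ATP20 by 0.69. The regulators INH1 and STF2 went in opposite directions in the table: INH1 fell by 1.73 and STF2, a factor named for stabilising the inhibited enzyme, rose by 1.30. In the microfermenter 14 of the 17 were called lower, while complex III had 2 of 9 lower and 2 higher. The microfermenter shares over all tested genes were 18.4% lower and 24.1% higher.

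Protein-coding genes of the mitochondrial genome could not be read here, since the authors' deposited table gave all 8 a log2 of 0 and a q of 1, and the libraries were made from poly-A RNA. Of assembly factors of the same complexes, 1 of 27 tested fell, PET100 at -1.13, 0 rose and the median was 0.02, with -0.55 for the 12 shorter than 500 bases and 0.06 for the 15 longer ones. Their difference from the subunits was not tested. Mitochondrial ribosomal proteins were listed by the pattern of their symbols, so members with other names may be missing. Of 65 tested, 4 fell (6.15%) and 0 rose, with a median of -0.17, while 2.41% of all tested genes fell. MRPL50, at -0.99, was the lowest of these 4. In the GO group of the mitochondrial large ribosomal subunit, 4 of 44 tested genes fell (9.09%) and 0 rose, with a median of -0.22.

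Many subunit genes are short, and gene length moved with the falls in the authors' deposited table. Length here is the span of the gene in the genome, with any intron, and not the length of its transcript. Of genes that fell, 21.4% were shorter than 500 bases, beside 5.7% of genes that rose and 11.1% of tested genes. Among the 40 respiratory genes, 10 of 15 of at least 500 bases fell, with a median of -0.71, and 9 of 25 shorter ones fell, with a median of -0.67. Among cytosolic ribosomal proteins, 24 tested genes were shorter than 500 bases by this span, 0 fell and their median was 0.17, beside 0.18 for longer ones. Genes with introns can count as longer here although their transcripts are short, so this split does not compare short with long transcripts. The 12 short assembly factors had a median of -0.55, beside 0.06 for the 15 longer ones, and the 9 short genes of the oxidative stress list -0.39, beside -0.07 for the 19 longer ones. The part of gene length in the falls was not tested. The share of all tested short genes that fell was 4.86%, against 2.23% of longer ones. Without genes under 500 bases, 6 ATP synthase members and 3 complex III members were called lower.

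**Figure D3:**
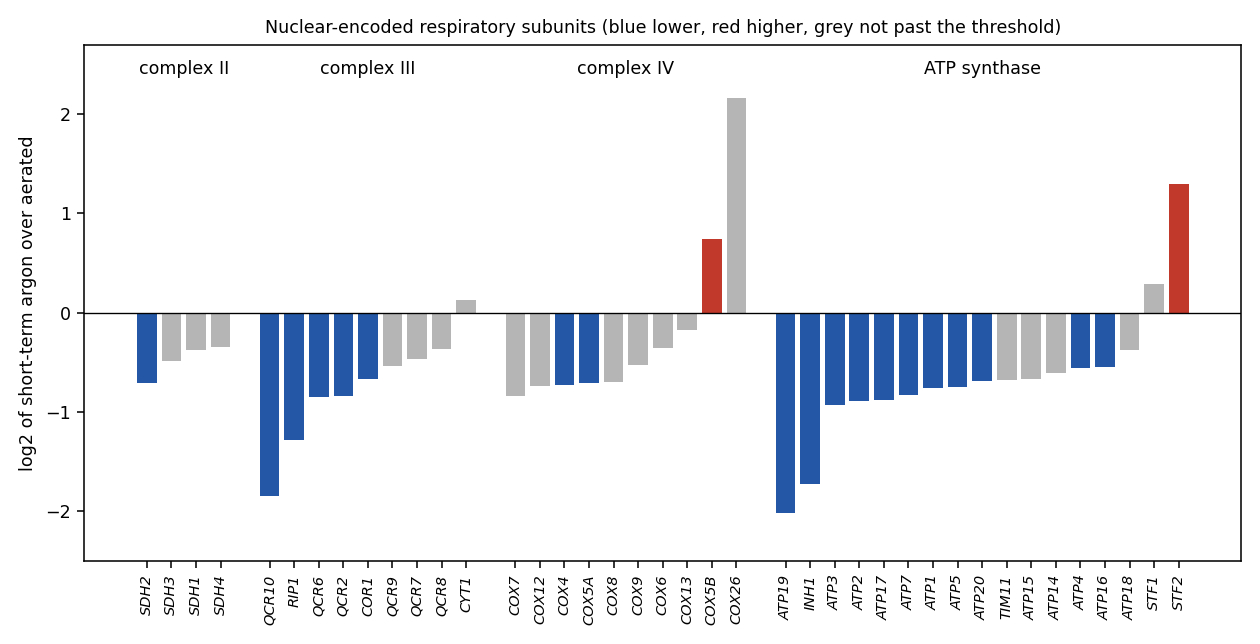
Bars give the log2 of 90 min argon over aerated growth in the authors' deposited table (y axis) for each tested nuclear-encoded subunit or regulator of complexes II to IV and ATP synthase (x axis), coloured by call. Of the 40 bars, 35 lie below 0, 19 are called lower, and STF2 at 1.30 and COX5B at 0.74 are the called rises.

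The promoters of 3 ATP synthase genes that fell are shown for the letters CCAAT, the box that the Hap2/3/4/5 complex is known to bind. They are cut from R64 in the same way, with CCAAT or its reverse complement ATTGG in capitals.
ATP19, chrXV:185188-185487, plus strand: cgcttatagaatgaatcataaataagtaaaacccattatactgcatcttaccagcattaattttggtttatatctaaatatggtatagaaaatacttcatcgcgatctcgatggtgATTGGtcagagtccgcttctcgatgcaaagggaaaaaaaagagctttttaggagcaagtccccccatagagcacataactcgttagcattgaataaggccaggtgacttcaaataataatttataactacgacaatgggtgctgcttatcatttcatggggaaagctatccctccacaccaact
INH1, chrIV:134929-135228, plus strand: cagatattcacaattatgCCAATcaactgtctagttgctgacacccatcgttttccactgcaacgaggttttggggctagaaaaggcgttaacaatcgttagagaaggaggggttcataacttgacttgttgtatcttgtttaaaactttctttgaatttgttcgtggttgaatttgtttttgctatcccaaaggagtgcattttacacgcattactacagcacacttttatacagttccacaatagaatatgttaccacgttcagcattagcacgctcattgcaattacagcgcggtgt
ATP3, chrII:315325-315624, plus strand: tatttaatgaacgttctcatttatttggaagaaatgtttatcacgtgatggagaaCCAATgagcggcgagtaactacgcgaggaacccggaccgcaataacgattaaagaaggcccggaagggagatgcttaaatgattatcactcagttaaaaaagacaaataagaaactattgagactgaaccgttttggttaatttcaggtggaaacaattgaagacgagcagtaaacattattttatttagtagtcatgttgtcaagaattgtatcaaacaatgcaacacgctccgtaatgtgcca
CCAAT was found on either strand in 35 of the 40 respiratory windows (87.5%), against 44.2% of the 5191 tested windows. By complex the counts were 4 of 4, 7 of 9, 9 of 10 and 15 of 17. With the box in 35 of the 40 windows, its presence could not separate fallers from the rest, and its part in the falls was not tested. COR1, COX4 and ATP1 fell without it, and the risers COX5B and STF2 held it. The Hap2/3/4/5 complex is known to drive genes for respiratory subunits. The 87.5% therefore describes the list and is no result of the argon comparison. Windows of assembly factors held it in 12 of 27 (44.4%), close to the share of tested windows. Among all genes that fell, 49.6% of windows held it, and among those that rose, 38%. The stress element CCCCT was in 50% of the 40 respiratory windows, against 21.5% of tested windows, 22.9% of windows of all genes that fell and 29.3% of windows of genes that rose. A match is a description of the letters and not a bound site.

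**Figure D4:**
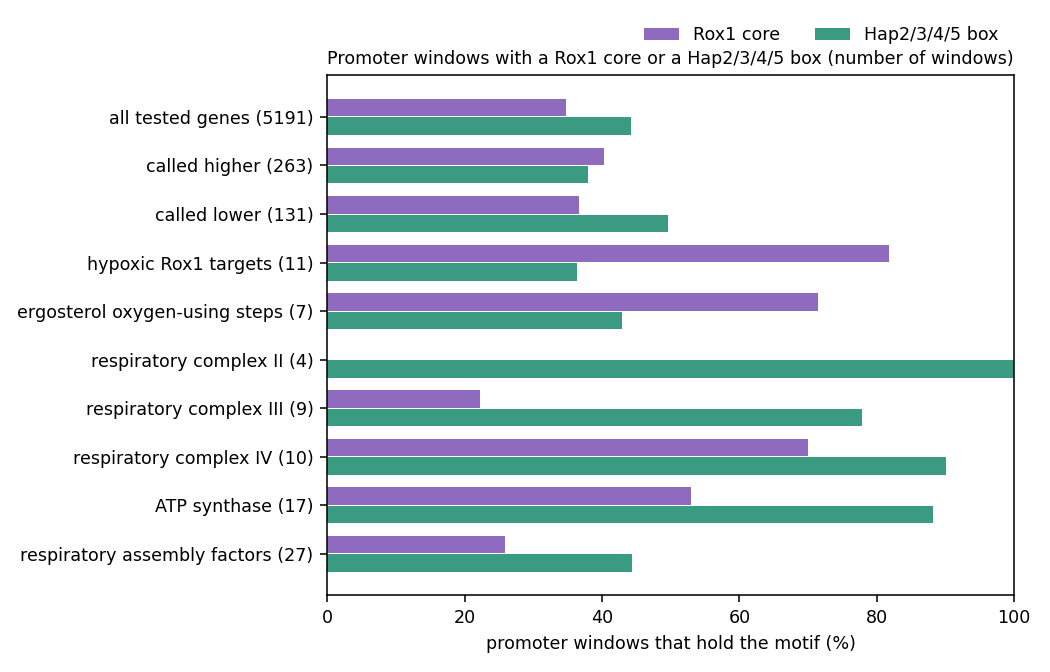
Bars give the percent of promoter windows (x axis) that hold the Rox1 core ATTGTT or the Hap2/3/4/5 box CCAAT, for tested genes, called genes and gene lists (y axis, with the number of windows). CCAAT is in 44.2% of tested windows and in 88.2% of 17 ATP synthase windows, and ATTGTT in 34.8% of tested windows and 81.8% of 11 Rox1 target windows.

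Redox and glycerol genes changed in both directions in the authors' deposited table. NDE1, the main external NADH dehydrogenase of mitochondria, fell by 0.95. GPD2, the glycerol-3-phosphate dehydrogenase that takes up surplus NADH without oxygen, rose by 0.88 and GPP1, the next enzyme to glycerol, by 0.70. FRD1 rose by 1.19 and GUT2, the mitochondrial partner of GPD2, by 0.77. That makes 4 risers and 1 faller of 11 tested, beside 4.86% rising and 2.41% falling among all tested genes. In the microfermenter GPP1 was at -1.94 and GPD2 at 0.18 with a q of 0.565.

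Central carbon metabolism moved at few points in the authors' deposited table. For all tested genes the shares were 4.86% higher and 2.41% lower. Of TCA and glyoxylate genes, CIT2, the peroxisomal citrate synthase, rose by 1.11 and IDH1, a subunit of isocitrate dehydrogenase, by 0.59, while LSC2, a subunit of succinyl-CoA ligase, fell by 0.59. In glycolysis and fermentation 3 of 31 rose, HXK1, a hexokinase, at 1.14, PYK2, a minor pyruvate kinase, at 0.97 and TDH1 at 0.59. The glycolysis list had 27 of 31 values above 0 and a median of 0.41, although few passed. HXT2, a hexose transporter, rose by 0.69 and MIG2, a repressor of glucose-repressed genes, by 0.65. Among glucose-repressed genes ATO2, YAT2 and ATO3 rose by 1.27, 0.85 and 0.83, out of 7 tested.

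Storage carbohydrate genes were higher after 90 min in the authors' deposited table: all 15 tested glycogen and trehalose genes had a log2 value above 0, 7 rose (46.7%), 0 fell and the median was 0.58. Over all tested genes 4.86% rose and the median was 0.05. Both glycogen synthases rose, GSY1 by 2.14 and GSY2 by 0.87, and the branching enzyme GLC3 by 0.61. PGM2 rose by 1.89. For trehalose, the synthase TPS1 rose by 0.58, the phosphatase TPS2 by 0.95 and the regulatory subunit TSL1 by 0.65. TPS2 was at 0.00 with a q of 0.986 in the microfermenter, and GSY1 and PGM2 at 1.87 and 2.50.

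In the list of genes against oxidants, falls outnumbered rises in the authors' deposited table, with 5 of 28 tested lower (17.9%), 1 higher and a median of -0.16. The wider GO group of the cellular response to oxidative stress was looked up after the values were seen. Of its 82 tested genes 7 fell (8.54%) and 4 rose (4.88%), with a median of -0.01. Over all tested genes 2.41% fell and 4.86% rose, and the median was 0.05. GPX2 fell by 3.40, TSA1 by 1.72, AHP1 by 1.67, SOD1, the copper and zinc superoxide dismutase, by 1.05 and TRX2, a thioredoxin, by 0.97. OYE2, an NADPH oxidoreductase, rose by 0.88. In the microfermenter GPX2 was at -1.55, TSA1 at -0.40 with a q of 0.27, AHP1 at -0.11 with a q of 0.783 and SOD1 at 0.54 with a q of 0.0749. TRX2 was called in both comparisons with opposite signs, at 1.16 in the microfermenter. Without genes under 500 bases, 2 of the list were called lower.

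Stress chaperones showed no common shift in the authors' deposited table. Of 25 tested, SSA4, an inducible Hsp70, rose by 0.63, while HSP12, a membrane-bound stress protein, fell by 1.12 and HSP30, a plasma membrane stress protein, by 0.56, with a median of 0.07 for the list. EUG1, a protein disulfide isomerase, rose by 0.95, alone among 18 tested genes of the unfolded protein response. Of 27 cell wall integrity genes, RLM1, the transcription factor of that pathway, rose by 0.69 and YLR194C, a wall protein, by 0.71. Beside these lists, 4.86% of all tested genes rose and 2.41% fell.

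In lists of sulfur, amino acid, NAD and vitamin genes, the calls were rises apart from 1, in the authors' deposited table. Across all tested genes 4.86% rose and 2.41% fell. Of 27 tested genes of methionine and sulfur metabolism, 5 rose, among them MET14 at 1.19 and MET3 at 0.91, the first enzymes of sulfate assimilation, and MHT1 at 0.99. Of 53 amino acid synthesis genes 7 rose, led by ARG3 at 1.46, LEU1 at 0.93 and SER3 at 0.92. SER3 was at -2.43 in the microfermenter. BNA1, an oxygen-using enzyme of NAD synthesis from tryptophan, rose by 1.14 and TNA1, the nicotinic acid importer, by 0.70, out of 13. THI21 fell by 1.12 among 12 tested thiamine and vitamin B6 genes.

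Metal uptake and adhesion showed isolated calls in the authors' deposited table. By comparison, 4.86% of all tested genes rose and 2.41% fell. FET4 rose by 1.23, and FRE1, a cell surface ferric and cupric reductase, fell by 0.96, out of 20 tested iron genes. MGA1, a regulator of filamentous growth, rose by 0.76 and FLO5, a flocculin, fell by 1.01, out of 11 tested genes of flocculation and adhesion. FLO5 is 88.4% identical to FLO1 over 2093 of its 3228 bases, so its reads may be shared. In the microfermenter MGA1 was at -2.30 and FLO5 at 0.30 with a q of 0.426.

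Growth-related lists held few calls after 90 min in the authors' deposited table. Of 42 tested ribosome biogenesis factors 0 passed in either direction at a q under 0.05, and 1 was lower at a q under 0.1, with a median of -0.10. Of 135 tested cytosolic ribosomal proteins, RPL41A, listed at 10, was the only call, and the median was 0.18. The lists of histones (9 tested), purine synthesis (19), proteasome (33), drug efflux (13) and biotin (5) also had 0 calls. Over all tested genes 7.27% were called at 90 min. In the microfermenter the same table called 21 of 42 biogenesis factors, 128 of 133 ribosomal proteins, 8 of 9 histones and 16 of 19 purine genes lower. It called 11 of 13 efflux genes higher. The microfermenter shares of all tested genes were 18.4% lower and 24.1% higher. Absence of a call at 90 min does not show that these genes were unchanged.

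**Figure D5:**
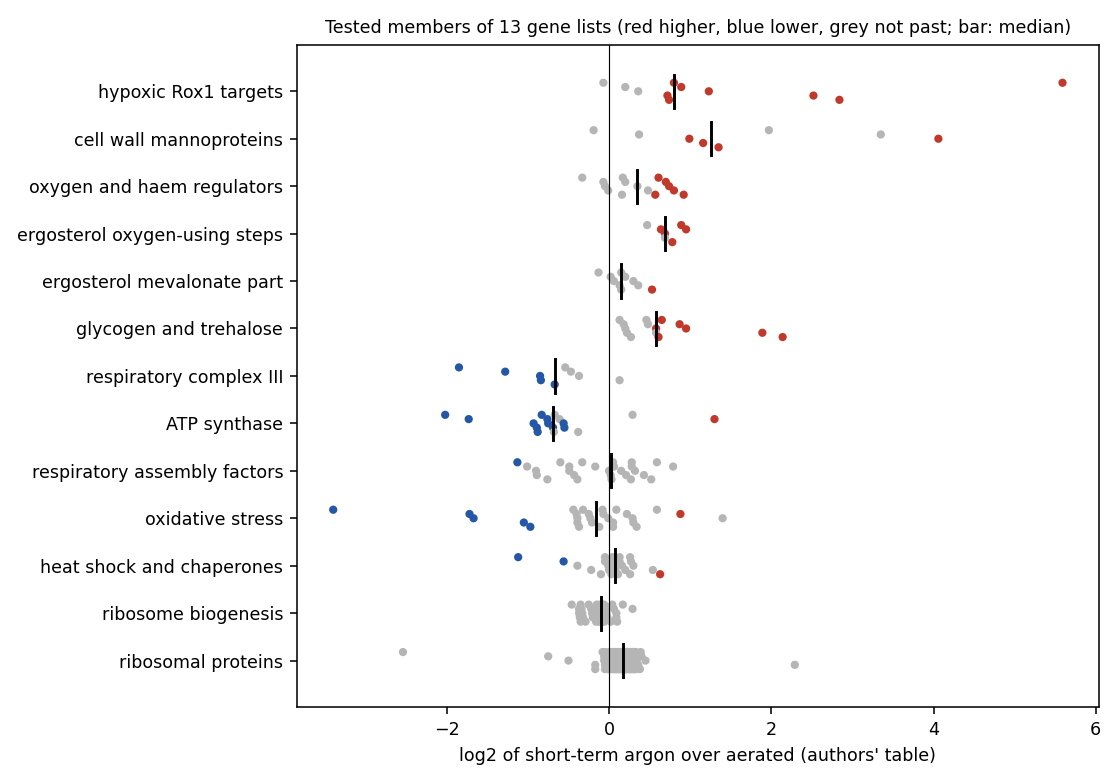
Each point is a tested member with a finite ratio, placed by its log2 of 90 min argon over aerated growth in the authors' deposited table (x axis) for 13 gene lists (y axis), with red for higher, blue for lower, grey for not past the threshold and a bar at the median of the points. The median of complex III and ATP synthase lies at -0.67 and -0.69 and that of Rox1 targets at 0.80, while ribosome biogenesis factors hold no called point.

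A further 11 called genes in the authors' deposited table had no finite ratio, being listed at 10 or -10. The 3 listed at 10 were RPL41A, YIL028W and YLR111W. The 8 listed at -10 included REC104 and SAE3, which act in meiotic recombination, NCE101 and PAI3, an inhibitor of a vacuolar protease. RPL41A encodes a very short protein of the large ribosomal subunit and has a coding length of 78 bases in RefSeq, and its q was 0.0268. No identity value against RPL41B was obtained for it, so whether reads were shared between them could not be judged. No fold can be given for these genes, and in each the other group may still have held few reads.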

How the data were processed

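Poly-A RNA of 3 ArgonST and 3 BY libraries was sequenced, and sample titles gave the groups. The submitters' processing notes name build R64 and, as tools, Cuffdiff 2.2.1, TopHat2 2.0.14 and Trimmomatic 0.33; their settings, the annotation and strand use were not stated. Per the file headers, the deposited values are log2 differential expression and a q value, a p-value adjusted by the authors. The direction was read as argon over aerated, in the order of the heading. The table has 0 columns of per-sample values, and 4 emptied lines were left out. Values of 10 or -10 were read, from the values, as ratios with a group at 0, and an exact 0, always with a q of 1, as no value.

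No difference between groups was tested here, so no depth, SD or n stands beside a value. Members of 48 gene lists were counted by call (q under 0.05). The members and lists were chosen with earlier results of these data known. Named genes are the 15 largest finite rises and falls, up to 5 called members of each list, every member of 7 short lists on oxygen, haem, sterols, mannoproteins and markers, and called genes at 10 or -10; others were chosen after their values were seen. By systematic name 6022 genes matched RefSeq R64. Promoter windows, 250 bases before and 50 from the start codon, were cut from that genome, since no table of promoters was used here, which departs from the planned source. Near-identical copies were found with BLAST+ 2.17.0. Counting and motif steps were tested on simulated data, with Python 3.11.15 and pandas 2.3.3. Thresholds on q and change, windows, copies, shared loci and gene length were varied. One further gene past the threshold is not reported here.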

Additional observations from a re-analysis of the deposited data

How the results depend on the processing

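At a q under 0.01 the authors' deposited table held 156 called genes, 116 higher and 40 lower, and at a q under 0.1 it held 626, with 234 lower. With a minimum change of 2-fold the counts were 115, 73 and 42. These include the 3 called genes listed at 10 and the 8 listed at -10, for which no fold can be given. With finite ratios only, 70 were higher and 34 lower. At a q under 0.01 and with the 2-fold minimum, members higher were 5 and 4 of the Rox1 targets, 3 and 0 of the oxygen-using ergosterol steps, and 4 and 2 of the glycogen and trehalose genes. Members lower were 7 and 2 for ATP synthase and 3 and 2 for complex III. With genes shorter than 500 bases left out, an alternative chosen after seeing the data, members lower were 6 for ATP synthase, 3 for complex III and 2 for oxidative stress, since fewer genes were counted. No count changed direction, and leaving out ratios with a group at 0, near-identical copies or shared loci, or subtracting the median of tested genes, moved none of the counts of calls by more than 1.5 times. Of 45 list medians, 3 moved when untested genes with a value were included. The share of tested windows with the Rox1 core was 29.4% over the bases before the start codon alone and 49.2% over 500 bases, the latter chosen after seeing the data. No paired analysis was possible because the table gives no value per library, and leaving out each library could not be done for the same reason. Depth is unknown.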

Other observations

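Groups in this section were chosen after the values were seen and are given as descriptions of the authors' deposited table. Of 62 tested genes whose RefSeq product name places them in the spliceosome, 7 fell (11.3%) and 1 rose after 90 min of argon, with a median of -0.02, beside 2.41% of all tested genes that fell. LIN1, LSM3, PRP45, SNP1, PRP28, CUS2 and SLU7 fell, by 3.21-fold, 2.48-fold, 2.34-fold, 2.16-fold, 2.15-fold, 1.95-fold and 1.91-fold, and SMD3 was 3.85-fold higher. In the microfermenter the same table called 9 of 64 higher and 5 lower, beside 24.1% and 18.4% of all tested genes. The group rests on product names alone. In GO groups after 90 min of argon, 2 of 17 tested genes of the spliceosomal U1 particle rose and 1 fell. For the U5 particle 1 of 14 rose and 2 fell, and for the U2 particle 0 of 11 rose and 1 fell. By GO annotation in RefSeq, 9 of 55 tested lipid droplet genes rose (16.4%) and 9 of 65 tested genes of the fungal-type cell wall rose, beside 4.86% of all tested genes. The lipid droplet and cell wall groups are 2 of 547 GO groups of 10 to 200 tested genes. The other GO groups given in the text are among the 547 too.

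Of genes that rose in the authors' deposited table, 12 of 263 placed ones (4.56%) were within 20 kb of a chromosome end, beside 90 of 5199 tested genes (1.73%) and 2 of 131 fallers (1.53%). At 30 kb 1 more riser was counted and the shares were 4.94%, 3.6% and 4.58%. The differences were not tested. The 12 included MAL33, MAL31 and MAL13 of the maltose loci, FET4, HXK1 and DLD3, a lactate dehydrogenase.

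Some called genes are neighbours. Of 4674 adjacent tested pairs, 26 had both genes called, 17 in the same direction and 9 in opposite directions. Whether this exceeds what unrelated neighbours would give was not tested. TIR4 and TIR2 lie 396 bases apart in convergent orientation and rose by 0.99 and 1.35 in the authors' deposited table. SUR2, a sphingolipid hydroxylase that uses oxygen, rose by 1.21 and its convergent neighbour ATP5 fell by 0.75.

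Some genes were called with opposite signs in the short-term argon and microfermenter comparisons of the authors' deposited table, which share the aerated libraries. PMA2 was at -1.40 after 90 min and 1.41 in the microfermenter, and PEX15 at -1.48 and 0.80. PMA2 is 84.4% identical to the main pump gene PMA1 over 2505 of its 2844 bases. IDH1 was at 0.59 and -1.02, and LSC2 at -0.59 and 0.94. The difference between the comparisons was not tested.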
